A study of Mus musculus with 3 samples.

Results

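The G1 cyclins, their kinases and the inhibitors of those kinases were followed as 10 genes: the D-type cyclin genes Ccnd1, Ccnd2 and Ccnd3, the E-type cyclin genes Ccne1 and Ccne2, the kinase genes Cdk4 and Cdk6, and the inhibitor genes Cdkn1b, Cdkn2a and Cdkn2b. They were chosen by name from 22658 gene models, and all 10 had a row in each library. The data are Bru-seq libraries of NB490, a mouse pancreatic cancer cell line kept under puromycin for stable expression of an inducible PDX1 short hairpin RNA (shRNA). In Bru-seq, cells take up bromouridine, here 2 mM for 30 min, and the labelled RNA is captured and sequenced, so a level reports RNA made during the labelling and not the mRNA or protein already in the cell. The 3 libraries came from cells without doxycycline (uninduced), cells given it for 48 h, and cells that had grown out under it for more than 3 weeks (grown-out). Where 3 values follow each other below without labels, they are in this order. All 3 carried the shRNA, and cells given doxycycline without it were not analysed here. Each condition had 1 library of 1 cell line, so there are no p-values, and every interval below covers counting error only, not the spread between cultures.

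The D-type cyclins are made in response to growth signals and switch on the kinases Cdk4 and Cdk6. These kinases phosphorylate the retinoblastoma protein, which frees E2F transcription factors to switch on the genes of S phase, the E-type cyclins among them, and the E-type cyclins then drive the kinase Cdk2. Cdkn2a and Cdkn2b encode p16Ink4a and p15Ink4b, which bind Cdk4 and Cdk6, and Cdkn1b encodes p27Kip1, which acts mainly on Cdk2 complexes. In pancreatic ductal adenocarcinoma the locus of Cdkn2a and Cdkn2b is often lost.

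The members that were lower in the grown-out library by the most were Cdkn2b, Cdkn2a and Ccnd3. They are shown by the 250 bases before their annotated starts in RefSeq (mouse build GRCm38.p6). Which of these starts were used in these cells was not tested. Capitals mark matches, on either strand, to the E2F motif TTNNCGC, the AP-1 motif TGANTCA and the cyclic AMP response element (CRE) core TGACGT. Cdkn2a and Ccnd3 each have 2 starts in that table, 12427 and 88416 bases apart. The upstream start of Cdkn2a gives the transcript of p19Arf and the downstream start that of p16Ink4a. The windows lie at chr4:89311033-89311282 for Cdkn2b, at chr4:89294620-89294869 and chr4:89282193-89282442 for Cdkn2a (both genes on the minus strand), and at chr17:47504801-47505050 and chr17:47593217-47593466 for Ccnd3 (plus strand).
Cdkn2b: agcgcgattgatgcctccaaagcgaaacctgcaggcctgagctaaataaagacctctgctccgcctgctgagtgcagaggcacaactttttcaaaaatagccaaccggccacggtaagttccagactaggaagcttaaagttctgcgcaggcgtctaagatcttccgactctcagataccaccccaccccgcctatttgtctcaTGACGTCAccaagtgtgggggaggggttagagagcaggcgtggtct
Cdkn2a upstream start: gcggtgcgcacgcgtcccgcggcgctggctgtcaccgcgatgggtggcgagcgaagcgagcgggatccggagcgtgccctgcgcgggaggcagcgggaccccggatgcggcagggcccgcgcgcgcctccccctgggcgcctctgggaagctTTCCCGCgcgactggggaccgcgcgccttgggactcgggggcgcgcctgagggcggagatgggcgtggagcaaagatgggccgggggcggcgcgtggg
Cdkn2a downstream start: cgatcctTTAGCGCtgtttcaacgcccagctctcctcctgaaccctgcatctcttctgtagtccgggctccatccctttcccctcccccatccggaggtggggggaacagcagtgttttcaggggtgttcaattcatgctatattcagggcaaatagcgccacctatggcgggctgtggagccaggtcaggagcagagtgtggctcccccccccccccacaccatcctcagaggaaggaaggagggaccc
Ccnd3 upstream start: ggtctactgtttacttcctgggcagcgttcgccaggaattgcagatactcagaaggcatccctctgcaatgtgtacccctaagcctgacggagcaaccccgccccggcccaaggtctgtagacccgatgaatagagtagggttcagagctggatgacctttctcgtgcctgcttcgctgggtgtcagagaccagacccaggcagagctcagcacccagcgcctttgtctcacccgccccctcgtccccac
Ccnd3 downstream start: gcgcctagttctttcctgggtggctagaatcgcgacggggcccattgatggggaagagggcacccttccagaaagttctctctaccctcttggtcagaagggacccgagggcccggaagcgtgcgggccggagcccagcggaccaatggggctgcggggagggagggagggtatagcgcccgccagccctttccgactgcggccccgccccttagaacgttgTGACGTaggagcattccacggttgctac

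The CRE core had 2 matches before the Cdkn2b start, 1 on each strand and overlapping each other, and 1 before the downstream Ccnd3 start. Of 32851 promoters in the table, 6.47% held this core in a window of the same length. An E2F match stood before each Cdkn2a start, against 17.0% of all promoters. Of the 10 genes, 7 had an entry in the table, with 9 windows in all, and Ccnd1, Ccnd2 and Ccne2 had none. The other windows with an E2F match were those of Cdk4, with 1, and Cdk6, with 2. No window of the 9 held the AP-1 motif, which 6.75% of all promoters held. The homeodomain core TAAT, found in 54.9% of all promoters, had 1 match each before Cdk6 and Cdkn1b, and the Sp1 motif GGGCGG, found in 32.7%, had between 1 and 4 in 6 windows. The GC share of the windows ran from 53.6% for Cdkn2b to 78.4% for the upstream start of Cdkn2a. The median over all promoters was 52.4%, below every window of the 9, and the motif shares of all promoters were not matched for GC. No window held more than 1 of the E2F, AP-1 and CRE motifs. A match is a description of letters and not of a bound site.

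Levels are the deposited RPKM values, reads per unit of model length and per library total, the latter being 51006775, 48418864 and 41632296 reads. Markers of epithelial cells were present, with Krt18 at 13.5 to 15.1 RPKM and Cdh1 at 4.63 to 5.35 RPKM, while Epcam was at most 0.0984 RPKM. The summed levels of 4 endothelial, 7 fibroblast and 4 acinar markers were at most 0.224, 0.0891 and 0.0871 RPKM, and 4 endocrine markers had 0 reads. Of 5 immune markers, only Cd68 reached the expression minimum used below. Pdx1 itself had 1.59, 1.05 and 1.41 RPKM. These are values of nascent RNA, whereas an shRNA degrades mature mRNA, so they say nothing of how strong the knockdown was. Nor can fewer transcribing cells and less RNA per cell be told apart in such libraries.

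A gene counted as measured where its mean over the 3 libraries was at least 0.5 RPKM and its model had 300 bp or more. Of all models 7915 did so, among them 9 of the 10 genes. Ccnd3 lay under the minimum with a mean of 0.290 RPKM. Its model of 94638 bp spans nearly the same length as the RefSeq gene (94639 bp), which holds both starts, and its reads, 1699 in the uninduced library, were counted over the whole model. The intervals in parentheses after levels are exact Poisson 95% intervals from the read counts. Overlap between such intervals does not mean no difference: the fold intervals of the comparisons below can exclude no change where level intervals overlap.

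**Figure D1:**
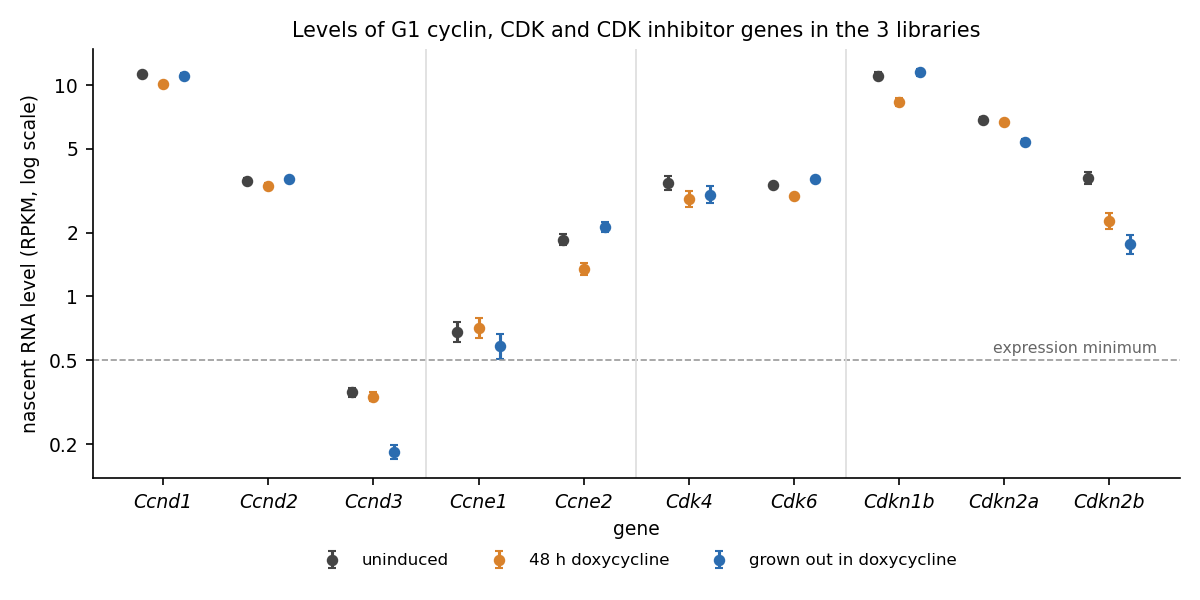
Nascent RNA level of each gene (RPKM, log axis) in uninduced, 48 h and grown-out cells. Points are single libraries and bars exact Poisson 95% intervals. Ccnd1 and Cdkn1b lie highest, Ccnd3 lies under the expression minimum of 0.5 RPKM (dashed), and Cdkn2b has its highest value in the uninduced library.

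Among the D-type cyclins, Ccnd1 was by far the most transcribed. Its product, cyclin D1, is often overproduced in carcinomas. Ccnd1 (chromosome 7, 152115836 to 152125830, minus strand) had 11.3 (11.0 to 11.6), 10.1 (9.86 to 10.4) and 11.1 RPKM (10.8 to 11.4). The 48 h library was the lowest of the 3, and the intervals of the other two overlapped. It stood above 96.5%, 96.1% and 96.4% of measured genes in these libraries. Ccnd2 (chromosome 6, 127075727 to 127101066, minus strand), which encodes cyclin D2, had 3.54 (3.44 to 3.64), 3.34 (3.24 to 3.45) and 3.58 RPKM (3.47 to 3.70). Its intervals overlapped between the uninduced and each doxycycline library, but not between 48 h and grown-out cells. Ccnd3 (chromosome 17, 47642000 to 47736637, plus strand), for cyclin D3, had 0.352 (0.335 to 0.369), 0.335 (0.319 to 0.352) and 0.183 RPKM (0.170 to 0.197), on 1699, 1536 and 722 reads. Its level in grown-out cells lay below both other libraries with no overlap, and the uninduced and 48 h intervals overlapped.

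By level per length, Ccnd1 made up 74.4%, 73.4% and 74.6% of the summed D-type cyclin RPKM, and Ccnd2 23.3%, 24.2% and 24.2%. The Ccnd3 share was 2.32%, 2.43% and 1.24%. As its model averages reads over a span that holds both starts, these shares would differ for a shorter model. By read counts, which weight long models, the Ccnd1 share was 47.9%, 46.5% and 50.6%.

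Of the E-type cyclins, Ccne2 was the more transcribed in each library. Ccne2 (chromosome 4, 11118501 to 11131926, plus strand), which encodes cyclin E2, had 1.86 (1.76 to 1.97), 1.35 (1.26 to 1.44) and 2.13 RPKM (2.02 to 2.26). No pair of libraries overlapped, with 48 h lowest and grown-out cells highest. Ccne1 (chromosome 7, 38883003 to 38892509, minus strand), for cyclin E1, had 0.681 (0.609 to 0.758), 0.710 (0.636 to 0.792) and 0.581 RPKM (0.508 to 0.661), on 330, 327 and 230 reads, and all 3 intervals overlapped. Ccne2 thus made up 73.2%, 65.5% and 78.6% of the summed E-type cyclin level.

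The kinase genes Cdk4 and Cdk6 were close to each other by level per length. Cdk4 (chromosome 10, 126500659 to 126504338, plus strand) had 3.45 (3.19 to 3.72), 2.90 (2.65 to 3.16) and 3.04 RPKM (2.77 to 3.33). Only the uninduced and 48 h intervals lay apart. Cdk6 (chromosome 5, 3344312 to 3522225, plus strand) had 3.39 (3.35 to 3.43), 3.00 (2.96 to 3.04) and 3.58 RPKM (3.54 to 3.63). Its order was 48 h lowest and grown-out highest with no overlap, on 25824 to 30759 reads, since its model is 177914 bp long. Cdk6 made up 49.6%, 50.9% and 54.1% of the summed kinase level.

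All 3 inhibitor genes were transcribed in each library, Cdkn2a and Cdkn2b included. Cdkn1b (chromosome 6, 134870419 to 134875543, plus strand) had 11.1 (10.7 to 11.5), 8.38 (8.02 to 8.75) and 11.5 RPKM (11.1 to 12.0). The 48 h library was the low one, and the other two overlapped. Cdkn2a (chromosome 4, 88920377 to 88940523, minus strand) had 6.89 (6.73 to 7.06), 6.68 (6.52 to 6.85) and 5.40 RPKM (5.24 to 5.56), with grown-out cells below the rest. Its model of 20147 bp is as long as the RefSeq gene with both starts, so transcription toward p16Ink4a and toward p19Arf cannot be told apart here. Cdkn2b (chromosome 4, 88952198 to 88956941, minus strand) had 3.64 (3.40 to 3.89), 2.28 (2.09 to 2.48) and 1.77 RPKM (1.59 to 1.96), on 881, 523 and 349 reads. Every pair of libraries lay apart, with uninduced highest and grown-out lowest.

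In the order of levels in uninduced cells, Ccnd1 and Cdkn1b came first with overlapping intervals, followed by Cdkn2a. Cdkn2b, Ccnd2 and Cdk4 each overlapped the next in that order, ending at Cdk6, and Ccne2, Ccne1 and Ccnd3 came last with no overlap. The last place of Ccnd3 holds for its model of 94638 bp, which spans starts 88416 bases apart. Its place could differ for a shorter model. At 48 h Cdkn2b was 7th of the 10, and in grown-out cells 8th, behind Ccne2. In grown-out cells Cdkn1b and Ccnd1 again overlapped at the top, as did Ccnd2 and Cdk6.

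**Figure D2:**
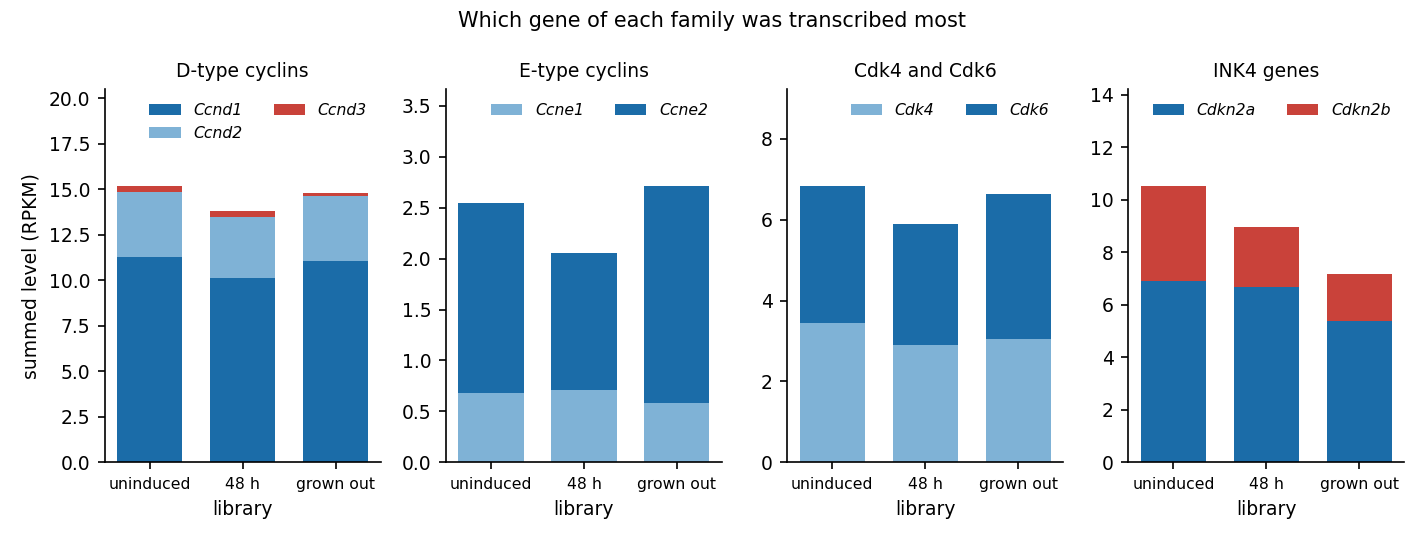
Stacked levels (RPKM, each panel with its own axis from 0) of the D-type cyclins, the E-type cyclins, Cdk4 with Cdk6, and the INK4 genes Cdkn2a with Cdkn2b, in each library. Colours are the genes. Summed level of Cdkn2a and Cdkn2b goes from 10.5 RPKM in the uninduced library to 7.17 RPKM in the grown-out one. The Cdkn2a part also counts transcription toward p19Arf, and the INK4 gene Cdkn2c is not in the sum. Ccnd1 keeps about the same part of its family.

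The first comparison set the 48 h library against the uninduced one, asking how transcription of these genes differed soon after induction of the shRNA. Of the 9 measured genes, 7 were lower beyond counting error, meaning that the exact conditional binomial 95% interval of the fold excluded no change, and 0 were higher. Among all measured genes 30.0% were lower and 30.1% higher by this rule. The median log2 ratio, taken of RPKM plus 0.05, was -0.17 over the 9 genes and 0.00 over all measured genes. Cdkn2b had the lowest ratio, at 1.60-fold lower (1.43 to 1.79), and was the 1 member past 1.5-fold lower, as were 3.27% of measured genes. With a pseudocount of 0.5 RPKM its log2 ratio was -0.58, and 0 members were past 1.5-fold lower. Ccne2 was 1.38-fold lower (1.27 to 1.51) and Cdkn1b 1.33-fold lower (1.253 to 1.403), so cyclin E2 and an inhibitor of its kinase had ratios of similar size. Cdk4 was 1.19-fold (1.06 to 1.34), Cdk6 1.13-fold (1.11 to 1.15), Ccnd1 1.12-fold (1.07 to 1.16) and Ccnd2 1.06-fold lower (1.01 to 1.10). The intervals of Cdkn2a, 1.03-fold lower (0.997 to 1.07), of Ccne1, 1.04-fold higher (0.893 to 1.22), and of the unmeasured Ccnd3, 1.05-fold lower (0.979 to 1.13), included no change. No member was past 2-fold, as were 0.720% of measured genes in the lower direction.

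The second comparison set grown-out against uninduced cells and shares the uninduced library with the first. Of the 9 measured genes, 3 were lower and 2 higher beyond counting error, against 29.5% and 33.6% of measured genes. Their median log2 ratio was -0.03, and that of all measured genes 0.01. Cdkn2b was 2.06-fold lower (1.82 to 2.34), the 1 member past 2-fold, as were 0.708% of measured genes in that direction. Its log2 ratio of -1.02 lay at the threshold: with scaling by TMM or DESeq2 factors, or a pseudocount of 0.5 RPKM, no member was past 2-fold. Its neighbour Cdkn2a was 1.28-fold lower (1.23 to 1.33). Cdk4 was 1.13-fold lower, with an interval from 1.00 to 1.28 that included no change under TMM and DESeq2 scaling. Ccne2 was 1.15-fold (1.06 to 1.24) and Cdk6 1.06-fold higher (1.04 to 1.08). For Ccnd1, 1.02-fold lower (0.983 to 1.06), Ccnd2, 1.01-fold higher (0.970 to 1.06), Cdkn1b, 1.04-fold higher (0.983 to 1.10), and Ccne1, 1.17-fold lower (0.987 to 1.39), the interval included no change. Under TMM or DESeq2 scaling that of Cdkn1b excluded it.

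Ccnd3 was 1.92-fold lower in grown-out than in uninduced cells (1.76 to 2.10). Because it lay under the RPKM minimum on a long model with many reads, a minimum of 500 reads on average was tried in its place, chosen after its values were seen. By that rule 7091 models were kept, Ccnd3 among them, and 3.10% of them were past 1.5-fold lower in this comparison, Ccnd3 and Cdkn2b included. The pseudocount brings its log2 ratio to -0.79.

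The third comparison set grown-out against 48 h cells, both of which served above, so a gene low at 48 h tends to come out high here. Of the 9 measured genes, 5 were higher and 3 lower beyond counting error, against 35.6% and 32.0% of measured genes. Ccne2 was 1.58-fold higher (1.45 to 1.73), the 1 member past 1.5-fold higher, as were 3.59% of measured genes. With a pseudocount of 0.5 RPKM its log2 ratio was 0.51, and 0 members were past 1.5-fold higher. A minimum of 2 RPKM in the mean leaves Ccne2 out. Cdkn1b was 1.38-fold (1.30 to 1.46), Cdk6 1.20-fold (1.18 to 1.22), Ccnd1 1.09-fold (1.05 to 1.14) and Ccnd2 1.07-fold higher (1.03 to 1.12). In the other direction, Cdkn2b was 1.29-fold (1.12 to 1.48), Cdkn2a 1.24-fold (1.19 to 1.29) and Ccne1 1.22-fold lower (1.03 to 1.45). Ccnd3 was 1.83-fold lower (1.67 to 2.00). Of the models with a mean of at least 500 reads, 2.68% were past 1.5-fold lower here, Ccnd3 among them. Cdk4, at 1.05-fold higher (0.925 to 1.19), had an interval that included no change.

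**Figure D3:**
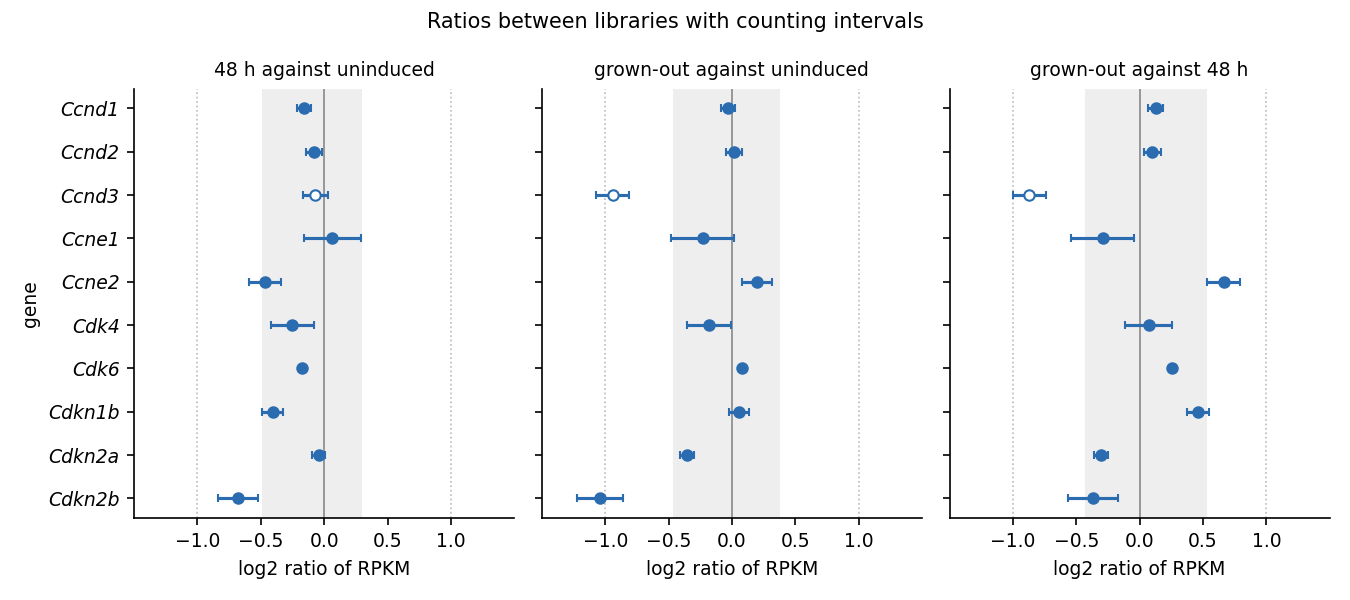
Log2 ratio of RPKM for each gene in the 3 comparisons, with exact conditional binomial 95% intervals as bars. The grey band holds the middle 90% of measured genes on the log2 scale of RPKM plus 0.05, dotted lines mark 2-fold, and the open circle is Ccnd3, under the expression minimum. Cdkn2b lies left of the band in both comparisons with uninduced cells, and Ccnd3 in both comparisons of grown-out cells.

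The inhibitors and the kinases were also set against each other as sums, a balance of transcription and not of protein. Summed level of Cdkn1b, Cdkn2a and Cdkn2b was 21.6, 17.3 and 18.7 RPKM, and that of Cdk4 and Cdk6 was 6.84, 5.89 and 6.62 RPKM. The first sum leaves out Cdkn2c, another INK4 gene described below, at 4.26, 2.63 and 4.35 RPKM. It holds Cdkn1b, whose product acts mainly on Cdk2 complexes. The order of the libraries depends on leaving out Cdkn2c: with it added, the 48 h library and not the grown-out one has the lowest ratio. No interval was computed for that wider sum. The ratio of these inhibitors to these kinases was 3.17 (3.03 to 3.31), 2.94 (2.80 to 3.09) and 2.82 (2.68 to 2.97), with intervals from Poisson error. The uninduced and grown-out intervals lay apart, and that at 48 h overlapped both. By read counts, which weight the long Cdk6 model, the ratio was 0.346, 0.346 and 0.272. Within the inhibitors the make-up differed more: Cdkn1b was 1.06, 0.935 and 1.61 times the summed level of Cdkn2a and Cdkn2b. Cdkn2b made up 34.6%, 25.4% and 24.7% of that INK4 sum, in which the Cdkn2a model also counts transcription toward p19Arf.

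Next to this INK4 locus, Mtap, a methionine salvage enzyme gene, lies 93382 bp downstream of Cdkn2a, on the opposite strand. It had 3.13, 3.15 and 3.01 RPKM, 1.04-fold lower in grown-out than in uninduced cells (1.00 to 1.08). Dmrta1, 397947 bp upstream of Cdkn2b, had 7 to 9 reads in each library, too few to compare. Around Ccnd3, Bysl on the opposite strand, which overlaps its end by 358 bp and encodes a ribosome biogenesis factor, was 1.37-fold higher in grown-out than in uninduced cells (1.23 to 1.51), and Taf8, 2763 bp before it, 1.19-fold lower (1.06 to 1.33). Next to Ccne2, Trp53inp1, a p53 target gene, lies 16976 bp before it on the same strand. Trp53inp1 was 3.16-fold lower in grown-out than in uninduced cells (2.73 to 3.66), where Ccne2 was higher. Past 2-fold lower in this comparison were 0.708% of measured genes. Its grown-out level, 0.313 RPKM on 234 reads, lay under the minimum of 0.5 RPKM. It thus counted as measured only through the libraries where it was higher. Ints8, which overlaps Ccne2 by 5622 bp on the opposite strand, had 2.30, 2.53 and 2.32 RPKM. Beyond Cdkn1b by 3566 bp on the same strand, 1190002F15Rik had log2 ratios to uninduced cells of -0.29 at 48 h and 0.08 in grown-out cells. Those of Cdkn1b were -0.40 and 0.05.

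The rest of the G1 to S machinery was read from 5 lists of 54 genes, 53 of which were found and 49 measured. At 48 h, 21 of the 49 were lower and 13 higher beyond counting error, with a median log2 ratio of -0.03. Past 1.5-fold lower were 4 of them, Cdkn2c, E2f2, E2f8 and Rrm2. In grown-out cells 5 were lower and 22 higher than in uninduced cells, with a median of 0.03. Among all measured genes, 30.0% were lower and 30.1% higher at 48 h, and 3.27% past 1.5-fold lower. In grown-out cells 29.5% were lower and 33.6% higher. The counts by list below stand against the same shares.

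Of the other CDK inhibitors, 1 was measured. Cdkn2c, which encodes the INK4 protein p18, had 4.26, 2.63 and 4.35 RPKM, 1.62-fold lower at 48 h (1.46 to 1.80) and 1.02-fold higher in grown-out than in uninduced cells (0.931 to 1.12). Unlike Cdkn2b, it was thus low in the 48 h library alone. Cdkn1a, the p53 target that encodes p21, lay under the minimum at 0.175, 0.0848 and 0.126 RPKM, on 87, 40 and 51 reads.

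Among the Rb family and E2F factors, 5 of 13 were lower and 1 higher at 48 h, and 3 lower and 5 higher in grown-out cells. The grown-out counts are near the shares of all measured genes, 29.5% lower and 33.6% higher. E2f8, a repressor E2F, had 3.57, 2.24 and 3.55 RPKM, 1.60-fold lower at 48 h (1.499 to 1.70). E2f2, an activator E2F, had 1.06, 0.660 and 1.43 RPKM, 1.60-fold lower at 48 h (1.46 to 1.75) and 1.36-fold higher in grown-out cells (1.26 to 1.46). Both have their lowest value in the 48 h library. Rb1, the retinoblastoma gene, had 0.888, 0.737 and 0.761 RPKM, 1.21-fold lower at 48 h (1.16 to 1.253) and 1.17-fold lower in grown-out cells (1.12 to 1.21).

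E2F target genes of the G1 to S step had 11 of 20 lower and 6 higher at 48 h, with a median log2 ratio of -0.08. In grown-out cells 0 were lower and 11 higher than in uninduced cells, with a median of 0.07. Rrm2, a ribonucleotide reductase subunit gene, had 9.23, 6.09 and 9.07 RPKM, 1.52-fold lower at 48 h (1.43 to 1.61). Its 48 h value stood apart below the other two. Ung, a DNA repair glycosylase gene, was higher in both doxycycline libraries, at 0.409, 0.532 and 0.674 RPKM, and was 1.65-fold higher in grown-out cells (1.36 to 2.01). It was the 1 pathway gene past 1.5-fold in that comparison, on 185 to 250 reads, as were 1.07% of measured genes in the higher direction. Its uninduced level lay under the minimum of 0.5 RPKM. It thus counted as measured only through the doxycycline libraries, where it was higher, so this call carries little weight.

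Cdk2, its partner cyclin A2 and its activators had 2 of 6 lower and 2 higher at 48 h, and 0 lower and 3 higher in grown-out cells. The 48 h counts are near the shares of all measured genes, 30.0% lower and 30.1% higher. Cdk2 had 1.79, 1.43 and 1.77 RPKM, 1.253-fold lower at 48 h (1.11 to 1.41). Genes for turnover of cyclins and p27 had 2 of 9 measured lower and 4 higher at 48 h, and 2 lower and 3 higher in grown-out cells. Ubac1, a subunit of a ubiquitin ligase of p27, had 0.569, 0.650 and 0.788 RPKM.

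**Figure D4:**
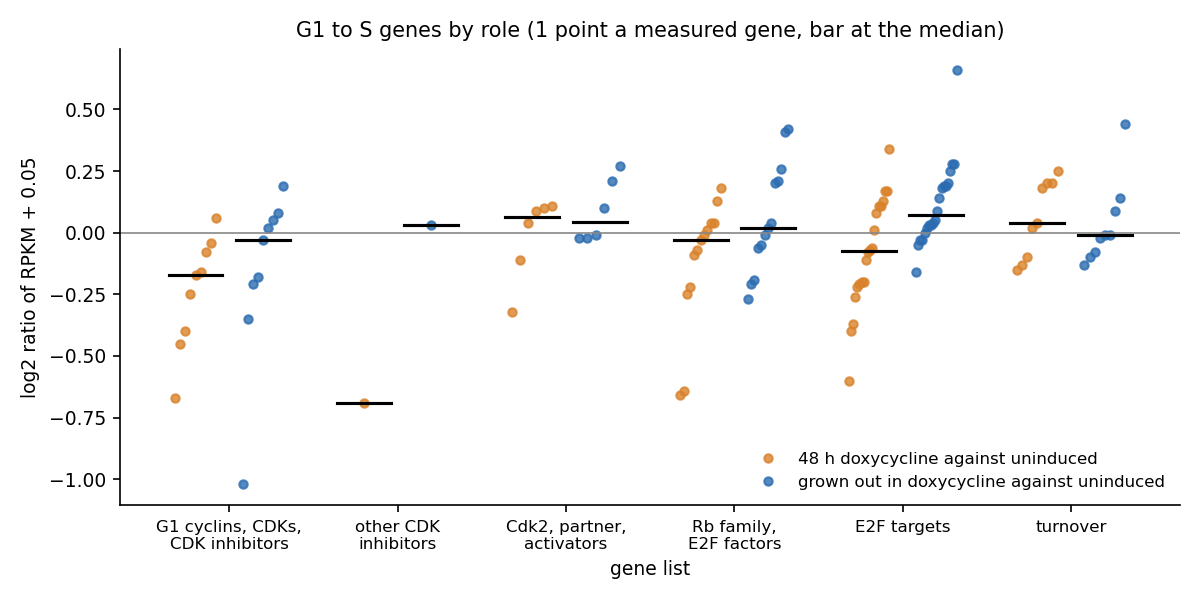
Log2 ratio of RPKM plus 0.05 to the uninduced library for each measured gene, by list, at 48 h (orange) and in grown-out cells (blue). Each point is a gene and each black bar a median. The lowest points at 48 h are Cdkn2c, Cdkn2b, E2f8, E2f2 and Rrm2, and the lowest in grown-out cells is Cdkn2b at -1.02.

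Patterns were compared by the pair of log2 ratios to uninduced cells, over 3 libraries and 58 measured genes, members and list genes together. The gene nearest to Ccne2 was Tk1, a thymidine kinase gene, at -0.40 and 0.18 against -0.45 and 0.19 for Ccne2. The nearest to Cdkn1b was Pcna, the polymerase clamp gene, at -0.37 and 0.04 against -0.40 and 0.05. Cdkn2b, at -0.67 and -1.02, had no near gene among these: Rb1, the nearest, was 0.91 away, whereas the distance was at most 0.09 for the other 8. Genes under the expression minimum were not compared. Of these, Ccnd3, at -0.06 and -0.79, and Cdkn1a, at -0.74 and -0.36, lay nearer to Cdkn2b than Rb1 did. So did Cdkn1c, another CDK inhibitor gene, at -0.70 and -0.29, on 6, 1 and 3 reads.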

How the data were processed

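Per the file headers, the authors deposited for each of the 3 libraries an estimated count of reads for each whole gene model, an RPKM value scaled by model length and library total, and a signal of reads per base, which was not used. Between 47.3% and 48.5% of counts above 0 were whole, within 0.01 of a read. Per the submitters' processing notes, bedtools 2.16.2, TopHat 1.4.1, Bowtie 0.12.8 and CASAVA 1.8.2 were used, with no settings given. They also name a human build, although the models are mouse. The build of the coordinates is not given in the sources used here, and they are printed as deposited. Samples were grouped by title. Models with a repeated symbol or spanning over 3000000 bp, 138 in all, were left out. Counts were rounded for exact Poisson and conditional binomial 95% intervals, computed with scipy 1.17.1 and tested on simulated data. Reads carry no molecular identifiers, so intervals can be too narrow. The fold is the ratio of RPKM, and the log2 ratio is of RPKM plus 0.05, which understates changes of low genes. Calls past 1.5-fold or 2-fold need that log2 ratio and an interval without no change. Alternatives were scaling by edgeR 4.0.16 (TMM) or DESeq2 1.42.0 factors or by gene model reads, other pseudocounts and other minimums. The named genes were all 10 members, pathway genes past 1.5-fold or among the 3 largest ratios of a comparison, nearest patterns, and neighbouring models. Nearest patterns are printed for Ccne2, Cdkn1b and Cdkn2b only. Neighbours are printed for Cdkn2a, Cdkn2b, Ccnd3, Ccne2 and Cdkn1b only, and not all of them. Cdkn1a, Cdkn1c, Cdk2, Rb1, Krt18, Cdh1, Epcam and Cd68 were named besides, chosen after their values were seen. Members and lists were chosen with earlier results of these data known. RefSeq promoters (GRCm38.p6) were matched by symbol.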

Additional observations from a re-analysis of the deposited data

How the results depend on the processing

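No paired analysis was possible because each condition had 1 library. Counts of members past a fold changed under these settings. With a pseudocount of 0.5 RPKM, 0 members were past 1.5-fold lower at 48 h, 0 past 2-fold lower in grown-out against uninduced cells, and 0 past 1.5-fold higher in grown-out against 48 h cells, by the construction of that ratio. TMM and DESeq2 scaling also left 0 past 2-fold lower in grown-out cells. With no expression minimum, or with the added minimum of 500 reads, Ccnd3 entered, so 2 members were past 1.5-fold lower in grown-out against uninduced cells and 1 in grown-out against 48 h cells. Of the 17003 kept models with any reads and 300 bp or more, 4.56% and 3.82% were past that fold with no expression minimum. Of the 7091 models with the minimum of 500 reads, 3.10% and 2.68% were. A mean of at least 2 RPKM removed Ccne1 and Ccne2 and left 1 member higher beyond counting error in grown-out against uninduced cells and 0 past 1.5-fold higher in grown-out against 48 h cells. By read counts in place of RPKM, which weights long models, the Ccnd1 share of D-type cyclins was 47.9% uninduced, 46.5% at 48 h and 50.6% grown out. The ratio of Cdkn1b, Cdkn2a and Cdkn2b to Cdk4 and Cdk6 by reads was 0.346, 0.346 and 0.272. Of single members, Ccnd2 at 48 h was not lower beyond counting error when scaled to gene model reads, at -0.06. No member's call changed direction. The scalings moved the median log2 ratio of measured genes to between -0.013 and 0.049. Depth limits Ccne1 most, with 230 to 330 reads, where the interval at 48 h reached 1.22-fold higher.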
